A study of Sus scrofa domesticus with 8 samples.

Results

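The genes described here are the HOX, SOX and forkhead (FOX) genes of the pig with their relatives among developmental transcription factors, in ovarian granulosa cells kept in culture. They were taken by symbol from the array annotation, as every HOX gene of the A to D clusters and every numbered SOX, FOX, TBX, PAX, IRX, MEIS, PBX and PRRX gene and those of the sine oculis homeobox family (SIX2, SIX4 and SIX6). This gave 88 of 10905 named genes: 26 FOX, 25 HOX, 13 SOX, 8 TBX, 5 MEIS or PBX, 4 PAX, 3 sine oculis, 3 IRX and 1 PRRX gene. The pig RefSeq annotation has 140 symbols of these families, and the rest, FOXL2 among them, were not analysed here. Granulosa cells line the ovarian follicle, feed the oocyte and make estrogen. They came from crossbred Landrace gilts (median age 170 days, 43 animals), untreated apart from culture in DMEM with 2% fetal bovine serum, antibiotics and glutamine. Cells at 0 h, 48 h, 96 h and 144 h were measured on 2 Affymetrix whole-transcript arrays each, 8 in all. Whether both arrays of a time stem from different animals, pools or cultures is not given, and the spread that the p-values rest on may therefore be technical.

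As background, these families set what kind of cell a cell becomes. HOX proteins carry a homeodomain and mark position along the body axis, and they bind DNA together with the homeodomain cofactors of the MEIS and PBX families. SOX proteins bind DNA through an HMG box, forkhead proteins through a winged helix, and T-box proteins through the domain that names them. In the ovary the forkhead factor FOXL2 keeps granulosa cell identity, and in the mouse its loss in adults is followed by SOX9, the factor of testicular Sertoli cells. FOXO1 and FOXO3 are held out of the nucleus by insulin and gonadotropin signals through AKT, and FOXM1 drives genes of mitosis.

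Values are log2 intensities as deposited, so a difference of 1 is a 2-fold change, and differences are given with the standard error (SE) of a limma model over all 8 arrays. A difference is called at an adjusted p below 0.05, by limma's moderated test with Benjamini-Hochberg adjustment over all 27558 features. Array medians were 4.52 to 4.63, and lower quartiles 3.13 to 3.25. No detection call was used, so a level near the lower quartile is not shown to lie above background, and levels are not compared between genes. At 144 h, 64 of the 88 genes read higher on replicate 2 than on replicate 1, with a median gap of 0.16. At 0 h, 48 h and 96 h the median gap was 0.03, 0.05 and -0.01. Over all named genes the median gap at 144 h was 0.03.

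The labelled cell type was checked against markers. All 6 measured granulosa markers lay above the array medians at 0 h, where their mean level was 10.01 and 10.1 on the 2 arrays. It was 8 and 8.03 at 48 h, 6.75 and 6.83 at 96 h, and 6.54 and 6.91 at 144 h, with the follistatin gene FST at -4.32 ± 0.23 and the estradiol-making HSD17B1 at -6.63 ± 0.14 (144 h over 0 h). The 6 fibroblast and stroma markers went the other way, with array means of 4.92 and 5.09 at 0 h, 7.4 and 7.46 at 48 h, 8.8 on both arrays at 96 h, and 9.3 and 9.91 at 144 h, and all 6 were called higher at 144 h. The 5 oocyte markers had array means of 5.55 and 5.86 at 0 h and between 3.6 and 3.85 on the 6 later arrays, and all 5 were called lower at each later time. Of 4 smooth muscle and pericyte markers, 3 were higher at 48 h, when the array means were 7.91 and 8.03, against 6.06 and 6.1 at 0 h. The array means were 8.65 and 8.66 at 96 h and 8.21 and 8.36 at 144 h, when 2 markers were higher and 1 lower than at 0 h. The 2 theca markers had array means of 4.34 and 4.38 at 0 h and between 3.37 and 3.58 on the 6 later arrays, and INSL3, 1 of the 2, fell at 144 h by 1.6 ± 0.12 (log2 difference -1.6 over 0 h, adjusted p = 2.32e-05). Endothelial, leukocyte and epithelial lists lay between 3.04 and 4.42 on all arrays, and of their 13 genes 3 rose and 2 fell at 144 h against 0 h. The granulosa, oocyte, theca, fibroblast and smooth muscle lists all had array means at each later time that differed from those at 0 h. Their part in the differences given below was not tested. In bulk samples, fewer cells of a type and less RNA per cell cannot be told apart.

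**Figure D1:**
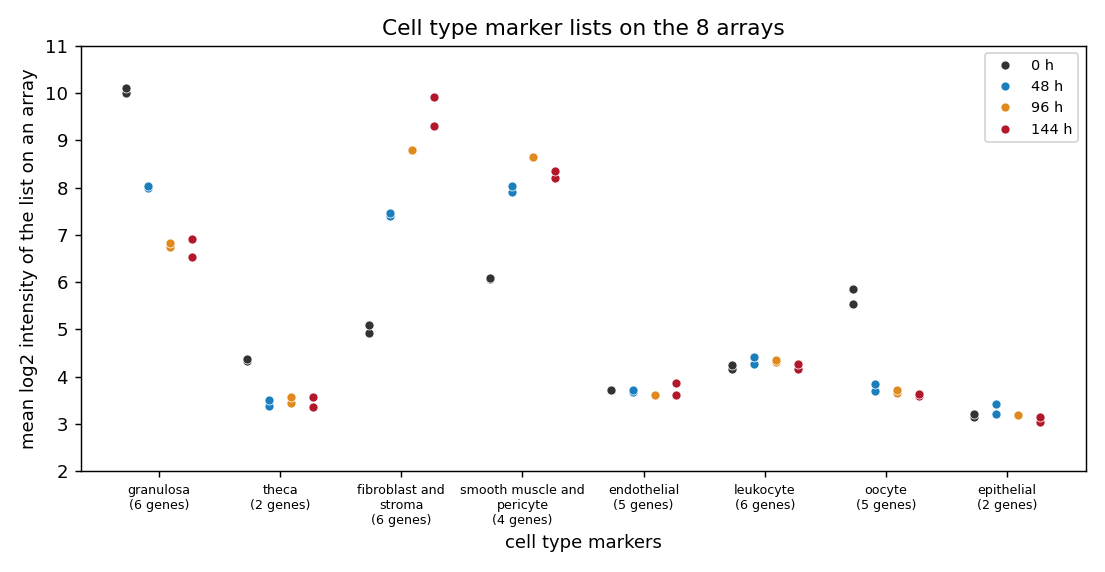
Mean log2 intensity of each cell type marker list on each of the 8 arrays (2 points per time, colours for 0 h, 48 h, 96 h and 144 h; the number of measured genes stands under each list). The granulosa and oocyte lists are highest on the 0 h arrays and the fibroblast and stroma list is highest on the 144 h arrays.

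A small set of these regulators changed far in culture while most stayed dim and level. PRRX1, SOX9, IRX3, TBX3 and SOX6 were higher at every later time than at 0 h, by up to 3.90 on the log2 scale. FOXP2, FOXM1, FOXO1, HOXD8, HOXD3 and PAX6 were lower at every later time, by up to 2.42. FOXO3, FOXO4 and PBX2 were lowest at 96 h, PBX4 was lowest at 48 h and MEIS2 was highest at 48 h. Each of these 16 genes had a called difference of at least 1 between some pair of times.

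In counts, 6 of the 88 genes rose and 17 fell at 48 h against 0 h, 26.1% in all, where 34.0% of all named genes were called. At 96 h against 0 h, 9 rose and 14 fell (background 44.8%), and at 144 h against 0 h, 9 and 12 did (background 36.8%). Between later times, 10 rose and 6 fell at 96 h against 48 h (background 31.2%), 5 and 3 at 144 h against 48 h (background 10.5%), and 7 and 7 at 144 h against 96 h (background 23.0%). By the F test over the 4 times, 31 genes changed, or 35.2%, where 51.9% of all named genes did. In at least 1 pair of times 41 genes were called, or 46.6%, where 59.3% of all named genes were. The share of these regulators called lay below the background in each of these comparisons except 144 h against 48 h, where 9.09% and 10.5% were close and their order turned under 3 settings. These were trend and robust moderation (12.5% and 11%), a fit of the 2 times alone (4.55% and 3.86%) and leaving out 48 h replicate 1 (5.68% and 4.76%). The background was not matched for level: 22.7% of these regulators lay above the median of feature means, where 55.4% of all named genes did. By the F test, 11.4% of named genes below the lower quartile were called, 34.1% between it and the median, and 74.8% above the median. The median difference of the 88 genes at 144 h over 0 h was -0.12, and that of all named genes was -0.03.

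The counts depended on single arrays, and the share of all named genes called moved too. Without 48 h replicate 2, 15 genes were called at 48 h against 0 h (26% of named genes), and without 0 h replicate 1, 12 were called at 144 h against 0 h (28%). At 96 h against 48 h, 10 were called without 48 h replicate 1 (19.8% of named genes), 9 without 48 h replicate 2 (21.7%), 6 without 96 h replicate 1 (16.5%) and 5 without 96 h replicate 2 (17.1%). At 144 h against 48 h, 5 were called without 48 h replicate 1 (4.76% of named genes) or either 96 h array (7.12%), and 4 without 48 h replicate 2 (5.25%). At 144 h against 96 h, 9 were called without either 0 h array (20.3% of named genes) and 4 without 96 h replicate 1 (8.66%) or replicate 2 (9.31%). The F test called 19 genes without 96 h replicate 1 (39.3% of named genes) and 20 without 96 h replicate 2 (39.8%). The split by direction also moved with the scaling of the arrays. With arrays centred on the same median, 7 were higher and 12 lower at 48 h, 13 and 12 at 96 h against 0 h, and 6 and 10 at 144 h against 96 h. After cyclic loess, 7 were higher and 12 lower at 48 h, and 13 and 13 at 96 h against 0 h.

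**Figure D2:**
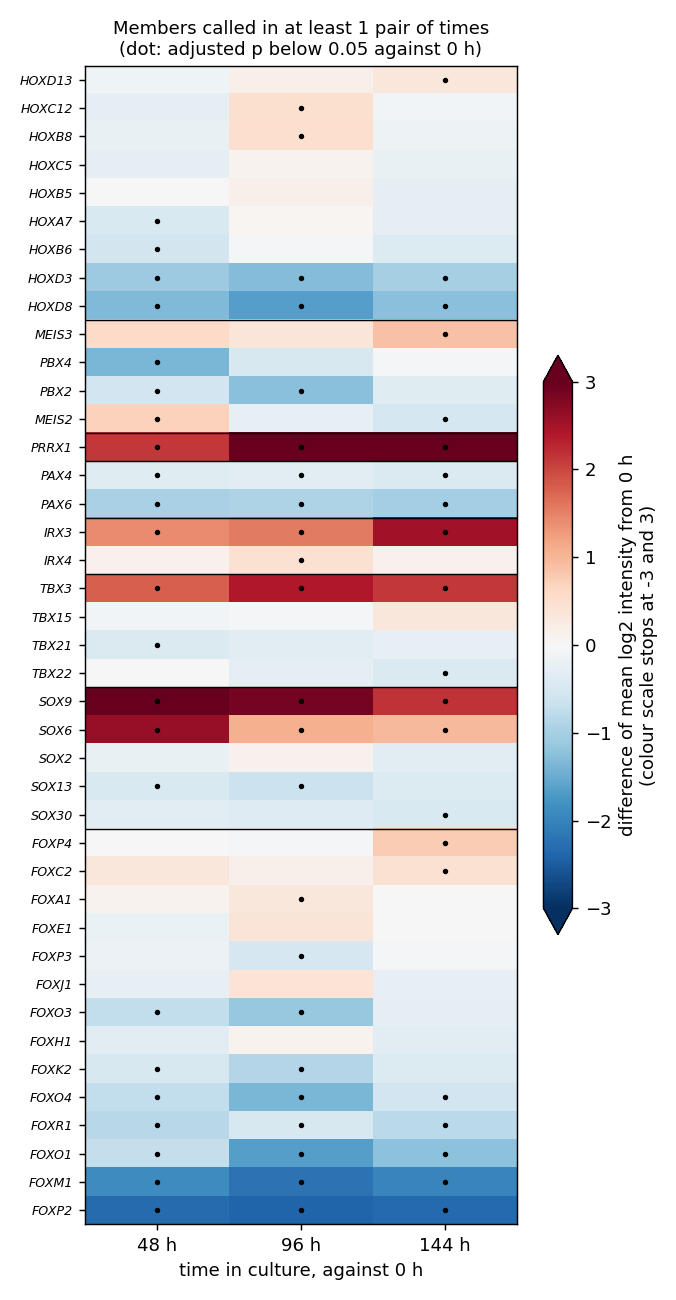
Difference of the mean log2 intensity at 48 h, 96 h and 144 h from 0 h (columns) for the 41 genes called in at least 1 pair of times (rows, by family from HOX at the top to FOX at the bottom), with a dot where the adjusted p against 0 h was below 0.05 and a colour scale that stops at -3 and 3. The strongest red lies in PRRX1, SOX9, SOX6, IRX3 and TBX3, and the strongest blue in FOXP2, FOXM1, HOXD8 and FOXO1.

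Among the 25 HOX genes, HOXD3 and HOXD8 stood apart in level and in change. They lie close together in the HOXD cluster, with 1 protein-coding gene between them in the RefSeq order of pig genes. HOXD8 read 6.16 and 6.47 at 0 h, 5.11 and 4.84 at 48 h, 4.72 and 4.59 at 96 h, and 5.15 and 4.95 at 144 h. Both 0 h arrays lay above all 6 later arrays, which lay nearer to the array medians. The difference was -1.34 ± 0.15 at 48 h (adjusted p = 0.000359), -1.66 ± 0.15 at 96 h (adjusted p = 5.95e-05) and -1.26 ± 0.15 at 144 h (adjusted p = 0.000391). HOXD3 had the same course, with 6.23 and 6.27 at 0 h, 5.33 and 5.01 at 48 h, 5.06 and 4.86 at 96 h, and 5.14 and 5.36 at 144 h. Its differences from 0 h were -1.08, -1.29 and -1.0, each ± 0.15, with adjusted p of 0.00094, 0.000197 and 0.00115. Neither gene was called between any of the later times. Both are read from a single feature, and each held its 3 calls under all alternative settings tried.

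The other HOX genes of the clusters read dim on all arrays. These 23 genes, 7 of cluster A, 8 of cluster B, 4 of cluster C and 4 of cluster D, lay between 2.19 and 4.24 on every array, below the array medians. They include HOXD1 and HOXD10, listed next to HOXD3 and HOXD8 in the RefSeq order of pig protein-coding genes. HOXA13, HOXB13, HOXC13 and HOXD13, at the far end of their clusters, are also among them. At 144 h against 0 h, 1 of the 23 was called, where 36.8% of all named genes of any level were. This was HOXD13 at 0.34 ± 0.1 (adjusted p = 0.037), and its call was lost under 11 of 14 alternative settings. At 96 h, 20 of the 23 lay above their 48 h means, by a median of 0.23, and 5 were called higher: HOXC12 (0.74), HOXB8 (0.72), HOXB6 (0.51), HOXA7 (0.51) and HOXC5 (0.4). At 144 h, 3 of the 23 lay above their 96 h means, and 3 others were called lower: HOXB8 (-0.66), HOXC12 (-0.57) and HOXB5 (-0.43). The rise at 96 h was seen with arrays centred on the same median (20 of 23 above, median 0.26) and after cyclic loess (18 of 23, median 0.18). Of all named genes with a mean level below the lower quartile of features, 3.59% were called higher at 96 h than at 48 h, and of those between that quartile and the median 10.7%. At 144 h against 96 h, 2.15% and 5.85% of these genes were called lower. Of the 5 rises at 96 h, that of HOXB8 was kept under all alternative settings tried, and each of the others was lost under at least 1. HOXB8 read 3.48 and 3.29 at 0 h, 3.19 and 3.13 at 48 h, 3.84 and 3.93 at 96 h, and 3.22 on both arrays at 144 h, so that both 96 h arrays lay above all the others. At such levels a difference is printed as measured, with no statement that the transcript was present.

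**Figure D3:**
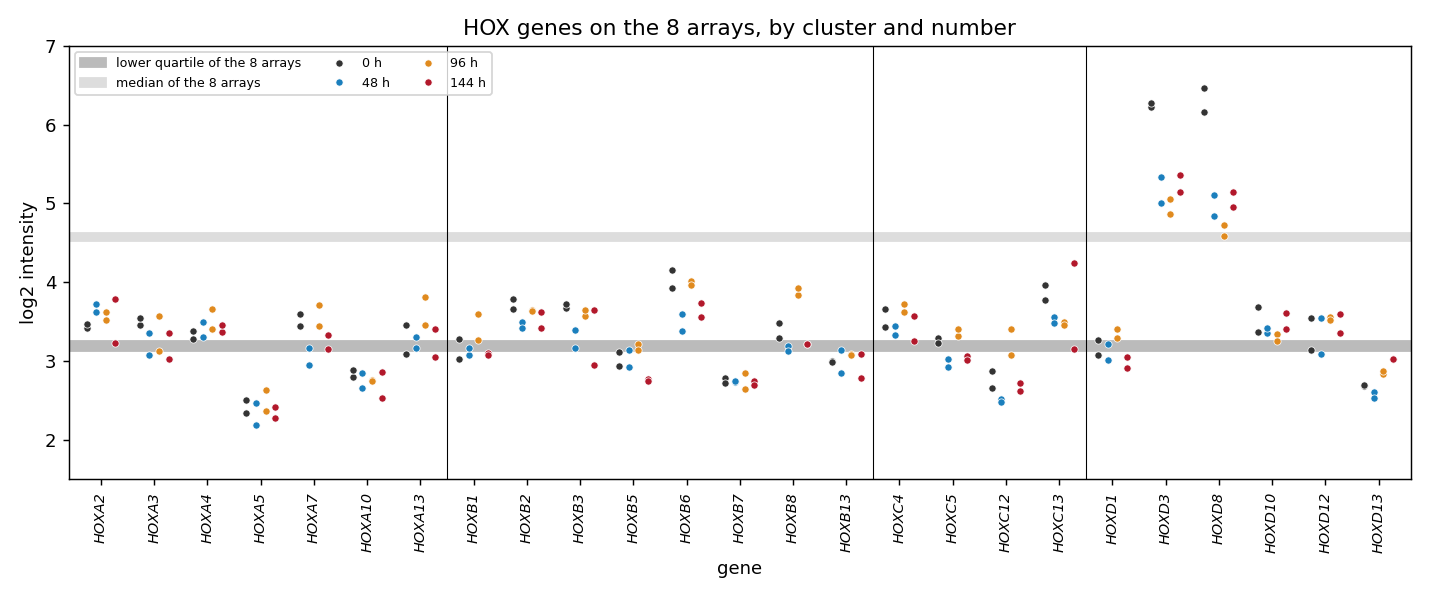
Log2 intensity of the 25 HOX genes on each of the 8 arrays (2 points per time), ordered by cluster and number, with grey bands for the lower quartiles and the medians of the arrays. HOXD3 and HOXD8 lie above the medians at 0 h and lower afterwards, and the other 23 genes lie between 2.19 and 4.24.

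The MEIS and PBX genes, whose proteins bind DNA beside HOX proteins, all had mean levels above the median of the features. By the F test 4 of the 5 were called, where 74.8% of all named genes above that median were. In some pair of times 4 of the 5 were called, where 59.3% of all named genes of any level were. PBX4 read 5.36 and 5.53 at 0 h, 4.15 and 4.01 at 48 h, 4.91 and 5.05 at 96 h, and 5.67 and 5.17 at 144 h. It fell at 48 h by 1.37 ± 0.17 (adjusted p = 0.000643) and was higher at 144 h than at 48 h by 1.34 ± 0.17 (adjusted p = 0.00287), so that the 144 h and 0 h arrays overlapped. PBX2 read 8.61 and 8.73 at 0 h, 8.01 and 8.18 at 48 h, 7.44 and 7.39 at 96 h, and 8.17 and 8.45 at 144 h. Its lowest values were at 96 h, -1.25 ± 0.13 against 0 h (adjusted p = 0.000122), and it was higher again at 144 h than at 96 h, by 0.89 ± 0.13 (adjusted p = 0.00256). MEIS2 was highest at 48 h, with 7.13 on both arrays at 0 h, 7.63 and 7.99 at 48 h, 6.92 and 6.86 at 96 h, and 6.79 and 6.42 at 144 h. The 144 h arrays lay below both 48 h arrays, by 1.20 ± 0.16 in the mean (log2 difference -1.20, adjusted p = 0.00343). MEIS3 was called at 144 h against 0 h, at 0.89 ± 0.21 (adjusted p = 0.0127). That call was lost under 3 of 15 alternative settings, among them without 0 h replicate 1 (0.6) and without 144 h replicate 2 (0.67). PBX3 was not called, with all its arrays between 6.75 and 7.17.

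The homeobox genes outside the HOX clusters held some of the largest changes. PRRX1, a paired-related homeobox gene of limb and face mesenchyme and of fibroblasts, read 5.10 and 5.39 at 0 h, 7.41 and 7.30 at 48 h, 8.47 and 8.54 at 96 h, and 9.86 and 8.43 at 144 h. All later arrays lay above the 0 h arrays, but the 2 arrays at 144 h were 1.42 apart, the widest replicate gap of all 88 genes. The difference was 2.11 ± 0.38 at 48 h (adjusted p = 0.00377) and 3.26 ± 0.38 at 96 h (adjusted p = 0.00021), a 9.6-fold higher intensity. At 144 h the PRRX1 difference was 3.90 ± 0.38 (adjusted p = 0.00011), 3.19 without 144 h replicate 1 and 4.61 without 144 h replicate 2. Between 144 h and 96 h the PRRX1 difference of 0.64 ± 0.38 was not called (adjusted p = 0.283).

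IRX3, an Iroquois gene that acts with IRX5 in granulosa cells of the mouse ovary, had 2 steps. It read 4.32 and 4.16 at 0 h, 5.65 on both arrays at 48 h, 5.63 and 5.95 at 96 h, and 6.70 and 6.83 at 144 h. The first step was 1.41 ± 0.14 (48 h over 0 h, adjusted p = 0.00015) and the second 0.97 ± 0.14 (144 h over 96 h, adjusted p = 0.00216), with 96 h and 48 h overlapping between them. The other Iroquois genes read dim: IRX4 lay between 3.33 and 3.85 and IRX6 between 3.21 and 3.70 on all arrays.

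PAX6, the paired box gene of eye and pancreatic islet, read 5.12 and 5.08 at 0 h and between 4.05 and 4.21 on all 6 later arrays. It was lower by 0.97 ± 0.11 at 48 h (log2 difference -0.97, adjusted p = 0.000343) and stood at -1.03 ± 0.11 at 144 h (adjusted p = 0.000189). Of the other PAX genes, PAX4 was called at all 3 later times with differences no larger than 0.43, and PAX1 and PAX9 were not called. SIX2, SIX4 and SIX6 were called in no pair of times and lay between 2.87 and 3.96.

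SOX9 had the largest difference at 48 h of all 88 genes. It read 5.30 and 5.01 at 0 h, 8.07 and 8.28 at 48 h, 7.99 and 8.09 at 96 h, and 7.23 and 7.41 at 144 h. Every later array lay above both 0 h arrays, by 3.02 ± 0.14 in the mean at 48 h (adjusted p = 4.35e-06), an 8.11-fold higher intensity. At 144 h SOX9 was 0.86 ± 0.14 below 48 h (log2 difference -0.86, adjusted p = 0.00885), still 2.16 ± 0.14 above 0 h (adjusted p = 1.37e-05). The call of a decline against 48 h was lost under 2 of 15 alternative settings, among them without 48 h replicate 2 (-0.76).

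SOX6, a SOXD gene whose protein works with SOX9 in cartilage, was also higher at 48 h and fell back part of the way afterwards. It read 3.03 and 3.37 at 0 h, around the lower quartile, then 5.72 and 5.90 at 48 h, 4.26 and 4.27 at 96 h, and 4.4 and 3.95 at 144 h. The difference from 0 h was 2.61 ± 0.18 at 48 h (adjusted p = 2.45e-05) and 0.97 ± 0.18 at 144 h (adjusted p = 0.00377). Against 48 h, the later levels were lower by 1.55 ± 0.18 at 96 h (log2 difference -1.55, adjusted p = 0.00053) and by 1.64 ± 0.18 at 144 h (log2 difference -1.64, adjusted p = 0.00143). Of the other SOXD genes, SOX5 was not called, and SOX13 was lower at 96 h by 0.65 ± 0.14 (log2 difference -0.65, 96 h over 0 h, adjusted p = 0.00557). The SOX genes other than SOX9 and SOX6, 11 in all, lay between 2.19 and 4.94. In some pair of times 3 of them were called, SOX13, SOX2 and SOX30, where 59.3% of all named genes of any level were.

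**Figure D4:**
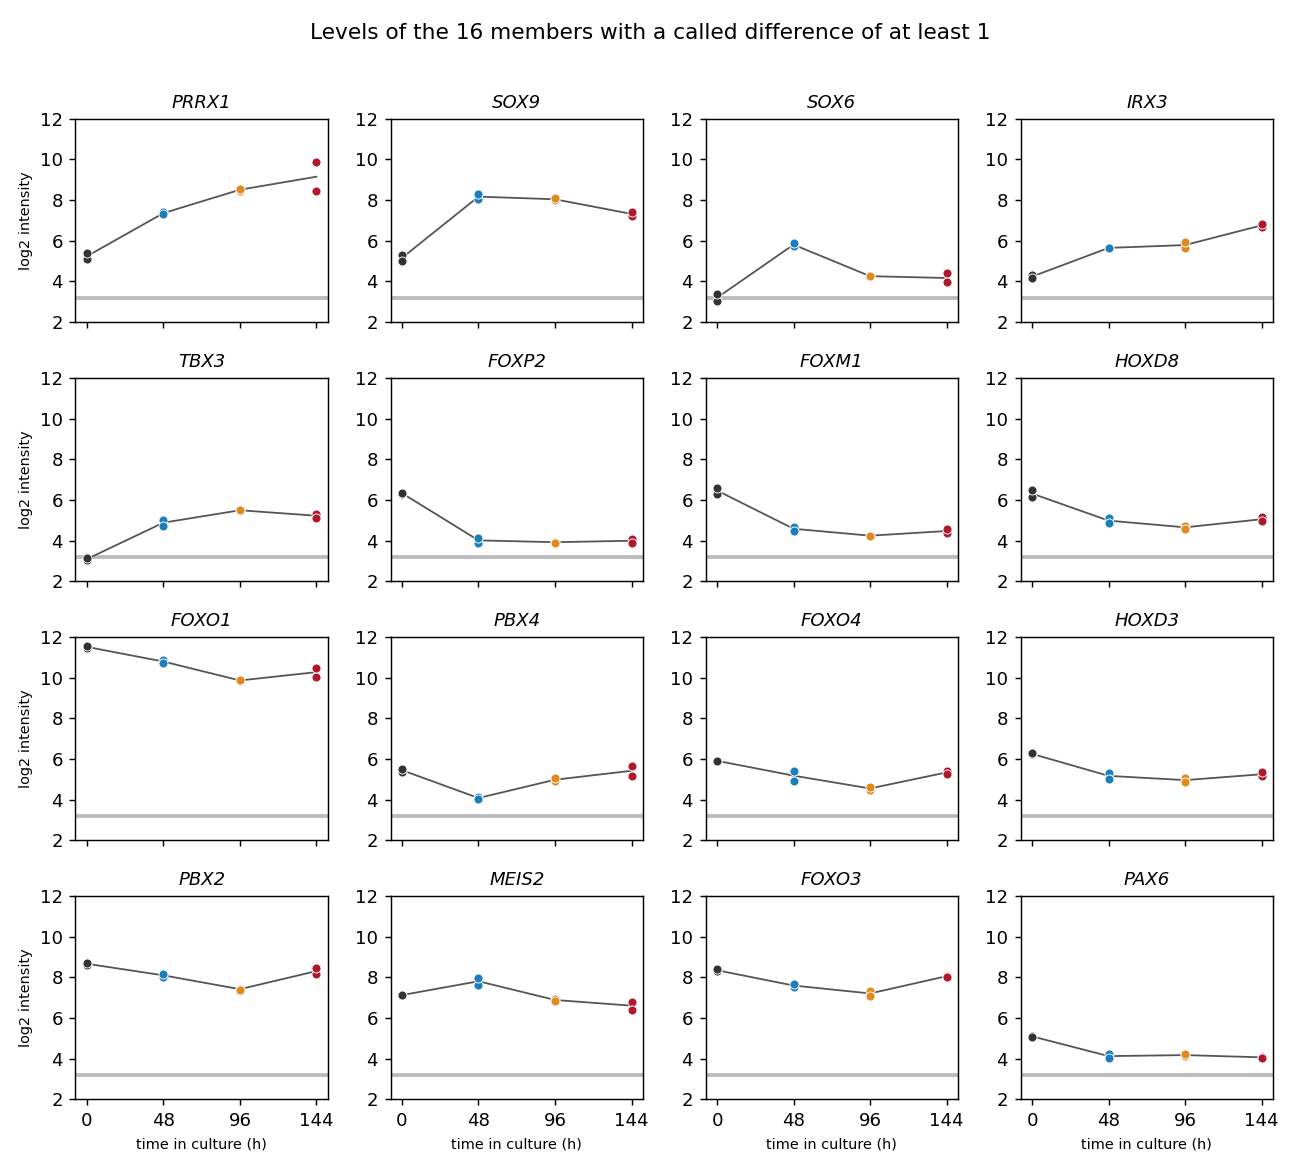
Log2 intensity (y axis, the same scale in each panel) against time in culture for the 16 genes with a called difference of at least 1, with 1 point per array and a line through the time means, and a grey band for the lower quartiles of the arrays. PRRX1, SOX9, SOX6, IRX3 and TBX3 lie higher on all later arrays than on the 0 h arrays, and FOXP2, FOXM1, HOXD8, FOXO1, HOXD3 and PAX6 lie lower.

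Of the 8 T-box genes, TBX3 changed by more than 1. TBX3, a repressor needed in limb and mammary gland development, read 3.03 and 3.15 at 0 h, 5.03 and 4.74 at 48 h, 5.49 on both arrays at 96 h, and 5.32 and 5.12 at 144 h. Its 0 h arrays lay around the lower quartile, and its later arrays above the array medians. The difference was 1.79 ± 0.14 at 48 h (adjusted p = 4.17e-05), 2.40 ± 0.14 at 96 h (adjusted p = 4.48e-06) and 2.12 ± 0.14 at 144 h (adjusted p = 1.16e-05). TBX5, separated from TBX3 by 1 gene in the RefSeq order, was not called and lay between 2.78 and 3.09. The other 6 lay between 2.15 and 3.47, with called differences of at most 0.45 in TBX15, TBX21 and TBX22.

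Of the forkhead genes called against 0 h, more were lower than higher at each later time. At 48 h, 7 of the 26 were lower and none higher, at 96 h 8 were lower and 1 higher, and at 144 h 5 were lower and 2 higher, beside 15.9%, 23.3% and 17.6% of all named genes lower and 18.1%, 21.5% and 19.2% higher at those times. As shares of the 26, the lower calls at 144 h lay near that background. The background differed by level, and 15 of the 26 had mean levels between the lower quartile and the median of features. In that range 15.6%, 18% and 15.3% of named genes were lower and 6.19%, 9.83% and 7.78% higher. Above the median, where 8 of the 26 lay, 20.1%, 31.7% and 23.2% were lower and 29.2%, 33.3% and 30.8% higher. FOXP2, a forkhead repressor best known from speech and language circuits, read 6.31 and 6.36 at 0 h and between 3.87 and 4.15 on the 6 later arrays. Its difference was -2.32 ± 0.13 at 48 h (adjusted p = 9.46e-06) and -2.34 ± 0.13 at 144 h (adjusted p = 5.9e-06), with no call between later times. FOXM1, the activator of mitosis genes, read 6.31 and 6.60 at 0 h, 4.68 and 4.48 at 48 h, 4.23 and 4.24 at 96 h, and 4.38 and 4.55 at 144 h. All 6 later arrays lay below both 0 h arrays and near or below the array medians, with differences of -1.88, -2.22 and -1.99, each ± 0.14 (adjusted p = 3.49e-05, 7.43e-06 and 1.77e-05).

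All 10 measured genes of a FOXM1 target list were lower at 48 h, 96 h and 144 h than at 0 h, with medians of -1.84, -1.64 and -1.95. TOP2A, a topoisomerase of chromosome separation, stood at -2.80 ± 0.18 at 144 h, the kinase gene NEK2 at -2.59 ± 0.2, the anaphase activator CDC20 at -2.54 ± 0.13 and the kinetochore gene CENPF at -2.19 ± 0.2. The list overlaps the mitosis genes already known to fall in these data, so it is not independent evidence of direction.

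The 3 FOXO genes, which link insulin and AKT signals to growth arrest and survival, had their lowest means at 96 h on the features used, although 144 h over 96 h was not called for FOXO1 (0.41 ± 0.16, adjusted p = 0.106). FOXO1 read 11.47 and 11.55 at 0 h, 10.85 and 10.72 at 48 h, 9.83 and 9.90 at 96 h, and 10.04 and 10.49 at 144 h. Its 0 h arrays lay above all later ones. The difference was -0.72 ± 0.16 at 48 h (adjusted p = 0.00928), a call lost without 0 h replicate 2 (adjusted p = 0.06) or 48 h replicate 2 (adjusted p = 0.0574). It was -1.64 ± 0.16 at 96 h (adjusted p = 6.88e-05) and -1.24 ± 0.16 at 144 h (adjusted p = 0.000475). A further FOXO1 feature disagreed on the last step: it read 9.94 and 10.07 at 0 h, 8.55 on both arrays at 48 h, 7.94 and 7.87 at 96 h, and 7.36 and 7.75 at 144 h. By that feature the difference from 0 h was -2.45 ± 0.14 at 144 h, its lowest time. Its difference at 144 h over 96 h was not called either (-0.35 ± 0.14, adjusted p = 0.132). FOXO3, which keeps primordial follicles dormant in the mouse, read 8.32 and 8.39 at 0 h, 7.55 and 7.66 at 48 h, 7.33 and 7.09 at 96 h, and 8.08 and 8.03 at 144 h. At 144 h it was higher than at 96 h by 0.85 ± 0.12 (adjusted p = 0.0023), and the difference from 0 h of -0.29 ± 0.12 was not called (adjusted p = 0.108), although it was after cyclic loess (-0.40, adjusted p = 0.0353). FOXO4 read 5.92 and 5.90 at 0 h, 4.93 and 5.42 at 48 h, 4.48 and 4.63 at 96 h, and 5.42 and 5.27 at 144 h, with -1.36 ± 0.17 at 96 h (adjusted p = 0.000282).

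Against 0 h, targets of FOXO factors did not move one way. Of 9 measured, 4 rose and 4 fell at 48 h and again at 144 h, while at 96 h 4 rose and 5 fell. Against 0 h, PDK4, a kinase that blocks pyruvate oxidation, stood at -4.87 ± 0.19 at 96 h and -4.0 ± 0.19 at 144 h. At the same 2 times TXNIP, an inhibitor of glucose uptake, stood at -5.09 ± 0.22 and -2.18 ± 0.22. The manganese superoxide dismutase gene SOD2 stood at 1.62 ± 0.23 and 2.05 ± 0.23, and the repressor gene BCL6 at 1.79 ± 0.15 and 1.84 ± 0.15.

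Among the other forkhead genes, FOXP4 was the late riser. It read 7.85 and 7.98 at 0 h, 8.06 and 7.75 at 48 h, 7.90 and 7.80 at 96 h, and 8.47 and 8.85 at 144 h, so that both 144 h arrays lay above all others. The difference was 0.81 ± 0.16 over 96 h (adjusted p = 0.00993) and 0.74 ± 0.16 over 0 h (adjusted p = 0.00864). Leaving out 96 h replicate 1 (adjusted p = 0.0577) or replicate 2 (adjusted p = 0.0804) ended the FOXP4 call against 96 h, and leaving out 0 h replicate 1 (adjusted p = 0.0604) ended that against 0 h. FOXK2 was lower at 96 h than at 0 h by 0.88 ± 0.16 (log2 difference -0.88, adjusted p = 0.00213), but its other feature was not called there (-0.1, adjusted p = 0.738). FOXR1 was lower at 48 h (-0.83 ± 0.14, adjusted p = 0.00297) and at 144 h (-0.8 ± 0.14, adjusted p = 0.00308), from array levels of 3.60 and 3.88 at 0 h, near the lower quartile throughout. FOXA1, FOXC2, FOXE1, FOXH1, FOXJ1 and FOXP3 were called in some pair of times with differences of at most 0.66. The 12 forkhead genes called in no pair were FOXA3, FOXB2, FOXE3, FOXF2, FOXI1, FOXI2, FOXK1, FOXL1, FOXN1, FOXN3, FOXN4 and FOXQ1. Of these, FOXK1 and FOXN3 had the higher levels, with all arrays between 6.84 and 7.65.

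Calls were more frequent among the brighter regulators. Above the median of feature means, 16 of 20 were called by the F test, or 80%, where 74.8% of all named genes of that range were. Between the lower quartile and the median 9 of 46 were called, or 19.6% (34.1% of named genes), and below the lower quartile 6 of 22, or 27.3% (11.4% of named genes). These regulators were dimmer as a group: 22.7% lay above the median, where 55.4% of all named genes did. Of the 43 called differences in the 25 genes that changed by less than 1, 39 were lost under at least 1 alternative setting. The 47 genes called in no pair of times lay between 2.19 and 7.65 on the arrays, with ranges of the time means of at most 0.64.

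**Figure D5:**
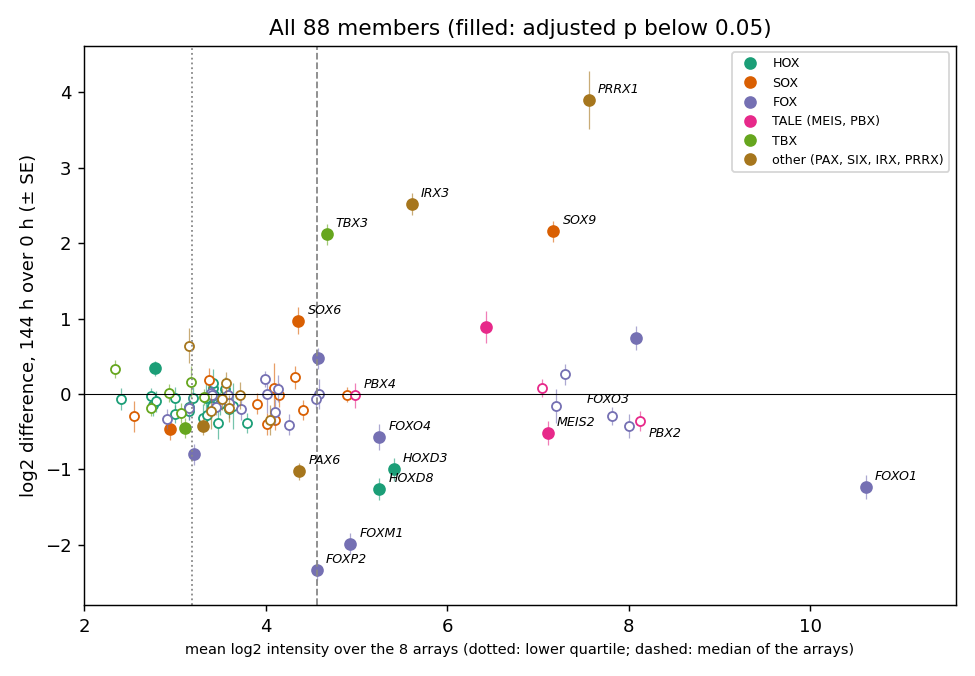
Log2 difference at 144 h over 0 h (y axis, ± SE) against the mean log2 intensity over the 8 arrays (x axis) for all 88 genes, coloured by family, filled where the adjusted p was below 0.05, with a dotted line at the lower quartile and a dashed line at the median of the arrays. The called differences beyond 1 lie in PRRX1, IRX3, SOX9 and TBX3 above 0 and in FOXP2, FOXM1, HOXD8, FOXO1 and PAX6 below, with HOXD3 at -1.0.

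Genes that act around these regulators gave mixed counts. For all the lists, 18.1%, 21.5% and 19.2% of all named genes were higher than at 0 h at 48 h, 96 h and 144 h, and 15.9%, 23.3% and 17.6% lower. Of 11 measured polycomb and trithorax genes, whose proteins keep HOX clusters silent or active, 3 were lower at 48 h, 9 at 96 h and 5 at 144 h, and none higher. At 144 h the menin gene MEN1 stood at -1.05 ± 0.15, the histone demethylase KDM6B at -0.91 ± 0.21 and JARID2 at -0.5 ± 0.11. KDM6B was no longer called when 0 h replicate 1 was left out (-0.77). The JARID2 call was lost under 2 of 15 alternative settings, among them without 0 h replicate 2 (-0.44). Of 10 genes of retinoic acid, an inducer of HOX genes, 3 were lower at 48 h, 2 higher and 5 lower at 96 h, and 3 higher at 144 h, among them the retinol carrier RBP4 (1.32 ± 0.23) and the receptor RARA (1.01 ± 0.15). Of 23 other homeobox genes, 3 were higher and 7 lower at 48 h, and 4 and 5 at 144 h, with EMX2, a gene of gonad formation, at -1.97 ± 0.23 and HMBOX1 at -0.88 ± 0.1. NANOG, a pluripotency factor gene, stood at 1.5 ± 0.17.

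Known targets of SOX9 and other mesenchymal factors gave mixed counts. Of 10 measured SOX9 targets, 1 was higher and 1 lower at 48 h, and 1 and 2 at 144 h. The list had array means between 3.79 and 4.05, below the array medians, and no detection call was used. The cartilage collagen COL2A1 stood at -0.22 and the proteoglycan ACAN at 0 at 144 h, neither called, while the fibrillar collagen COL11A1 stood at 2.79 ± 0.25. AMH, which SOX9 activates in the testis, stood at -2.46 ± 0.16. HAPLN1, a further target on the list, stood at 1.52 ± 0.19 at 48 h and -1.01 ± 0.19 at 144 h, both called. Of 12 other mesenchymal transcription factors, 3 were higher and 1 lower at 48 h, 3 and 2 at 96 h, and 1 and 1 at 144 h. Those called at 144 h were TSHZ2 at -2.29 ± 0.13 and OSR2 at 0.59 ± 0.16. OSR2 read between 2.34 and 3.32 on all arrays, near or below the lower quartile. The OSR2 call was lost under 3 of 14 alternative settings, among them without 0 h replicate 2 (0.43) and without 144 h replicate 2 (0.48). Of 13 genes of ovary and testis fate, 2 were higher and 5 lower at 48 h and 1 and 4 at 144 h. The estrogen receptor ESR1 stood at -4.18 ± 0.2, GATA6 at -1.46 ± 0.13 and WT1, a factor of the early gonad, at 0.83 ± 0.14.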

How the data were processed

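Values were used as deposited, as log2 intensities after RMA (robust multi-array average), the method that the submitters' processing notes name. No software or setting is given in the sources used here. Since RMA gives the probe values of all arrays 1 common distribution before features are formed, it can hide a shift of most transcripts. The feature values used here still differed a little between arrays, with medians of 4.52 to 4.63. All 27558 features were used without a further filter. Names came from the platform's annotation in GEO, possibly out of date: 11735 features had 1 symbol, 239 repeated 1 symbol, 373 held different symbols and 15211 had none in the table used. The 88 genes had 95 features, and for the 7 genes with more than 1 the feature with the highest mean was used. A feature shared by FOXA2 and a second gene was left out. All 88 symbols are in RefSeq's pig annotation (Sscrofa11.1), used for gene order only.

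In limma 3.58.1 (R 4.3.3), lmFit and eBayes estimated a mean for each time from the 8 arrays (4 residual and 3.98 prior degrees of freedom). All 6 pairs of times and the 4 times together were tested, two-sided, with Benjamini-Hochberg adjustment over all features. The fit was also run on simulated arrays with independent normal noise and known changes. That simulation held no batch and no shared source of arrays, so it cannot speak to either in these data. The genes and lists were chosen with earlier results of these data known. Values on each array are given for genes with a called difference of at least 1 and for a few others. Those others, and the further genes given with a difference only (MEIS3, FOXK2, FOXR1 and SOX13 among them), were chosen after their values were seen. Of each list, up to 4 called genes with the largest difference at 144 h are named. COL2A1, ACAN and INSL3 were named after their values were seen. No array batch is given, so a batch that follows time and time cannot be told apart. The 2 arrays per time limit the precision. No sequence is shown.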

Additional observations from a re-analysis of the deposited data

How the results depend on the processing

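Alternatives were median centring, cyclic loess, a filter on dim features, the replicate block, trend and robust moderation, the lowest-mean feature of a gene, fits of only the 2 times compared, fits without 96 h, and leaving out each array. Of 62 called differences of the 16 genes with a difference of at least 1, 47 were called under every alternative, 15 were lost under at least 1, and none changed sign. Of 43 called differences of the other 25 called genes, 4 were called under every alternative. FOXP3 turned round with its other feature, to 0.2 at 96 h over 0 h and -0.42 at 144 h over 96 h; its features disagree. The count of genes called at 144 h over 48 h was 4 in a fit of the 2 times and 5 without the 96 h arrays, and at 144 h over 96 h it was 7 in a fit of the 2 times, each with fewer arrays.

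Leaving out 1 array at a time gave 15 to 29 called genes at 48 h over 0 h, 17 to 29 at 96 h over 0 h, 12 to 29 at 144 h over 0 h, 5 to 24 at 96 h over 48 h, 4 to 10 at 144 h over 48 h, 4 to 18 at 144 h over 96 h and 19 to 39 for the 4 times together. The replicate numbers share only a number: deviations of same-numbered arrays correlated by -0.0382 to 0.188 over the 6 pairs of times. With the replicate block, 23, 22 and 18 genes were called at 48 h, 96 h and 144 h over 0 h. It lost 2 calls of the 16 genes, MEIS2 at 144 h over 0 h (adjusted p = 0.0564) and FOXO3 at 96 h over 48 h (adjusted p = 0.0576). The dim level of most of these genes limits what can be said of them.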
